A study of Mus musculus with 4 samples.

Results

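The Clec genes of mouse, taken as every gene whose symbol in the probe annotation starts with Clec and a number, were described in cultured cerebral cells under exposure to interferon-gamma (IFNγ) and benztropine. The annotation held 32 such symbols. For 31 of them a probe set carried that symbol alone, and these 31 are the Clec genes reported here, out of 22180 genes with such a probe set. Each had 1 probe set, so no averaging was needed. *Clec9a*, the remaining symbol, shared its only probe set with *Clec1b* and is not counted.

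The cells were cultured from the cerebrum of C3H/He mouse pups aged 3 days and enriched in astrocytes. Conditions were both agents together, IFNγ alone at 250 IU/mL, benztropine alone at 2.0 μM, and an untreated control, with exposures of 48 h. RNA mixed from 3 independent cultures was hybridized to 1 Affymetrix Mouse Gene 2.0 ST array per condition, 4 arrays in all. The number of arrays limits the precision: a change between a pair of arrays is a log2 difference with no error and no p-value. Nothing in the design separates the cell types of the culture, so more cells of a type and more RNA per cell cannot be told apart.

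C-type lectin receptors carry an extracellular domain with the C-type lectin fold, which in many members binds sugars in a calcium-dependent way and in others binds proteins or lipids. Activating members recruit the kinase Syk, either through a tyrosine motif in their own tail or through the adaptors Fcer1g and Tyrobp, and signal through Card9. Inhibitory members carry a tyrosine motif (ITIM) that recruits the phosphatases Ptpn6 and Ptpn11. In the brain these receptors are known mostly from microglia and other macrophages. Not every gene of this name encodes such a receptor: *Clec3b*, *Clec11a* and *Clec18a* encode secreted proteins, and *Clec16a* encodes a protein of endosomes and autophagy.

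Signals are given on the log2 scale, as obtained by the authors with RMA, which corrects background, normalizes quantiles over arrays and summarizes each probe set. Array medians lay between 6.65 and 6.68. The background level of an array was the 95th percentile of the signals of 1400 probe sets for smell and pheromone receptors, genes that brain cultures should lack, and it lay between 6.64 and 6.69. Probe sets differ in brightness for the same amount of RNA, so a level is compared only with the same gene in another array. Of 10 astrocyte markers, 9 were above background with both agents and with IFNγ, and 10 with benztropine and in control, and their summed signal was 15130 with both agents, 16619 with IFNγ, 17002 with benztropine and 17948 in control. The 16 measured markers of microglia and macrophages were above background in every array, and their summed signal was 38838 with both agents, 39017 with IFNγ, 34995 with benztropine and 32212 in control. Such a sum rests mostly on the brightest probe sets. Differences of the single markers with IFNγ against control ran from −0.66 for *Fcrls* to 0.65 for *Ptprc*. Of the markers of other cells that carry Clec receptors, those above background in control were 3 of 8 for dendritic cells, 0 of 9 for monocytes and neutrophils, 2 of 9 for T and NK cells, 2 of 8 for endothelium and 2 of 4 for platelets.

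In the control array, 13 of the 31 Clec genes (of all genes, 58.0%) were above background. The same 13 were above it in each of the 4 arrays, *Clec4a2* was above it in the IFNγ and both-agents arrays only, and 17 were above it in none. With the 99th percentile as background, 6 of 31 Clec genes were above it in control (of all genes, 38.6%), and these were *Clec7a*, *Clec12a*, *Clec5a*, *Clec2d*, *Clec16a* and *Clec4d*. *Clec7a* encodes Dectin-1, the receptor of fungal beta-glucans. *Clec12a* encodes an inhibitory receptor that binds uric acid crystals, and *Clec5a* an activating receptor that pairs with Tyrobp. *Clec2d* encodes Clr-b, a ligand of an inhibitory receptor of NK cells. *Clec4d* and *Clec4n* encode MCL and Dectin-2, which bind microbial glycolipids and mannans and signal through Fcer1g. Between both levels in control lay *Clec18a*, *Clec4n*, *Clec3b*, *Clec2m*, *Clec4a3*, *Clec4a1* and *Clec4f*, the last a receptor known from liver macrophages.

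**Figure D1:**
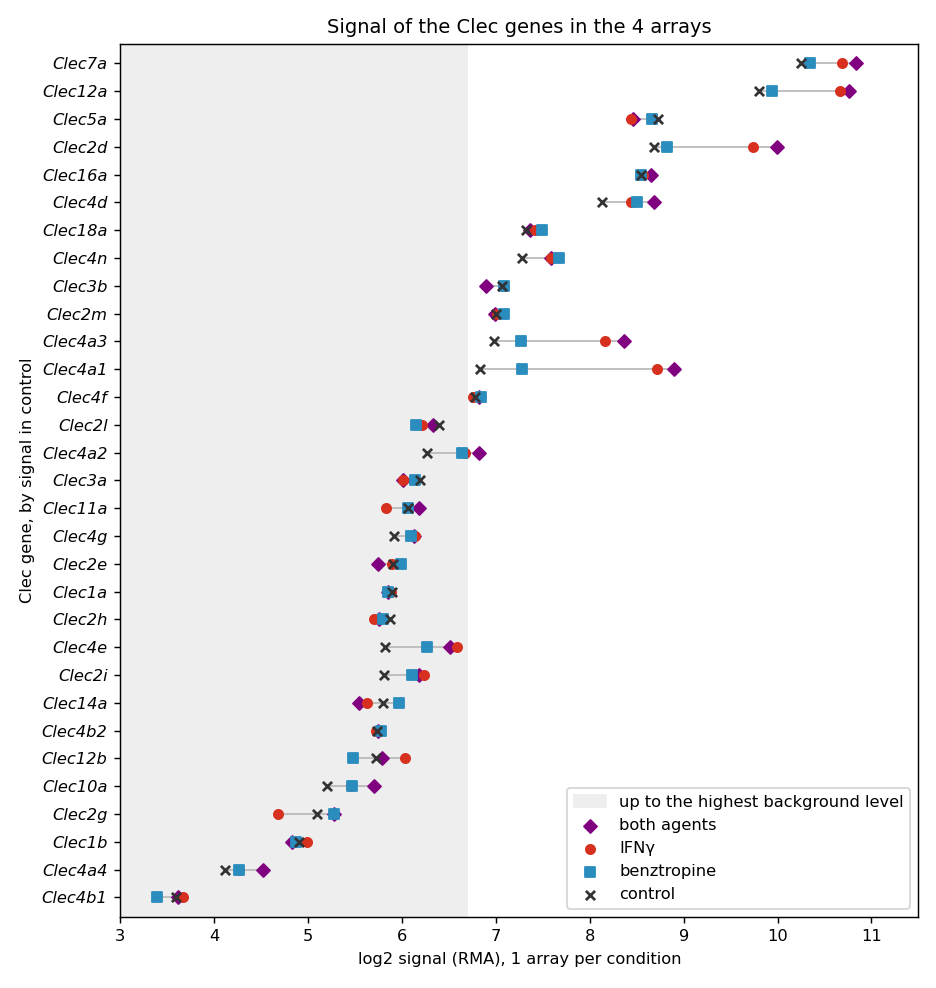
Log2 signal of the 31 Clec genes (rows, placed by their signal in control) in the arrays of both agents, IFNγ, benztropine and control, with 1 point per array; the grey area reaches up to 6.69, the highest background level of the 4 arrays. *Clec4a1*, *Clec4a3*, *Clec2d* and *Clec12a* show wide gaps between the arrays with IFNγ and those without it, and 17 genes stay at or below background in all arrays.

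With IFNγ 4 Clec genes rose by the limma test, namely *Clec4a1*, *Clec4a3*, *Clec2d* and *Clec12a*, each past 1.5-fold in the absence and in the presence of benztropine. All 4 were above background in all arrays. Against control, 5 of the 31 genes were higher past 1.5-fold (a log2 difference of 0.58) and 0 were lower, where 1.39% of all genes were higher and 0.289% lower. With both agents against benztropine alone, 4 were higher and 0 lower, where 1.25% of all genes were higher and 0.347% lower. The pairs share no array. In both pairs 4 of the 31 were higher and 0 lower, where 0.879% of all genes were higher and 0.0451% lower. Over the 31 genes, the median log2 difference was 0.08 against control and 0.07 in the presence of benztropine, and over all genes it was −0.00 and −0.04.

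*Clec4a1*, also named *Dcir4*, belongs to the dendritic cell immunoreceptor group of the Clec4a genes. Its log2 signal was 8.89 with both agents, 8.72 with IFNγ, 7.28 with benztropine and 6.83 in control. Both arrays with IFNγ lay above both arrays without it. The change was 3.70-fold against control and 3.06-fold in the presence of benztropine, which ranked the gene at 49 of 13341 and at 59 of 13374 among the genes above background on either array compared. In control this gene lay near the background level of 6.69, and without IFNγ it stayed below the 99th percentile on both arrays.

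*Clec4a3*, or *Dcir3*, is the next gene of this group along the chromosome. It had 8.36 with both agents, 8.16 with IFNγ, 7.27 with benztropine and 6.98 in control on the log2 scale, again without overlap between arrays with and without IFNγ. It was 2.27-fold higher with IFNγ than in control and 2.13-fold higher with both agents than with benztropine alone.

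*Clec2d*, the gene of the NK cell ligand Clr-b, had log2 signals of 10.00 with both agents, 9.74 with IFNγ, 8.82 with benztropine and 8.68 in control. These amount to 2.08-fold against control and 2.27-fold in the presence of benztropine. Of the 4 genes it was the 1 with the higher difference in the presence of benztropine, by 0.13 on the log2 scale, and this gap was not tested.

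*Clec12a*, the gene of the inhibitory receptor, had 10.76 with both agents, 10.67 with IFNγ, 9.94 with benztropine and 9.80 in control. The change was 1.83-fold against control and 1.77-fold with both agents against benztropine alone, so this gene passed 1.5-fold but not 2-fold in both pairs.

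A limma fit of log2 signals over all 22180 genes, with additive terms for IFNγ and benztropine and 1 residual degree of freedom, used the 4 arrays together. It assumes that the effects add, and its residual is the departure from that. Its SE and p therefore do not measure the spread between cultures or between repeated arrays. At a Benjamini-Hochberg adjusted p under 0.05, limma called 4 of the 31 Clec genes higher with IFNγ and 0 lower, where it called 0.726% of all genes higher and 0.0271% lower. The estimates on the log2 scale were 1.75 ± 0.09 (SE; limma adjusted p = 0.00615) for *Clec4a1*, 1.14 ± 0.07 (limma adjusted p = 0.00960) for *Clec4a3*, 1.12 ± 0.07 (limma adjusted p = 0.0113) for *Clec2d* and 0.84 ± 0.07 (limma adjusted p = 0.0216) for *Clec12a*. Without adjustment, limma gave 11 Clec genes higher and 2 lower at p under 0.05, where 5.87% of all genes were higher and 6.53% lower. 

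For the markers of microglia and macrophages the median log2 difference was 0.27 against control and 0.19 with both agents against benztropine alone, over 16 genes. Past 1.5-fold against control, 3 of these were higher (*Ptprc*, *C1qb* and *Adgre1*, at 0.65, 0.64 and 0.60) and 1, *Fcrls*, was lower, at −0.66. In the presence of benztropine 0 were higher, the highest being at 0.57, and *Fcrls* was lower, at −1.21. Among the 4 Clec genes that rose, the smallest differences were 0.87 and 0.82, for *Clec12a*. These 4 genes were picked for passing 1.5-fold in both pairs, so their distance from the markers is no test. Over all 31 Clec genes the median differences were 0.08 and 0.07, and over the 14 above background in either array of a pair 0.31 and 0.14. Of these 14, *Clec4a2* was above it in the arrays with IFNγ alone. Of 9 markers of monocytes and neutrophils, 2 were above background with both agents and with IFNγ, and 0 with benztropine and in control, and their summed signal was 812 with both agents, 736 with IFNγ, 512 with benztropine and 521 in control. The 2 genes were the monocyte markers *Ly6c2* and *Ccr2*. The rest of this list was below background in all arrays. Over the 9 genes the median difference was −0.00 against control and −0.12 in the presence of benztropine. *Ly6c2* was at least 2.29-fold higher with IFNγ than in control and at least 3.13-fold higher in the presence of benztropine. *Ccr2* had 6.96 with both agents, 6.79 with IFNγ, 6.06 with benztropine and 6.25 in control, with log2 differences of 0.55 against control and 0.90 in the presence of benztropine, the second past 1.5-fold. Of 8 markers of perivascular macrophages 0 passed 1.5-fold against control, and 3 were lower and 0 higher in the presence of benztropine. The part of these cells in the Clec changes was not tested.

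**Figure D2:**
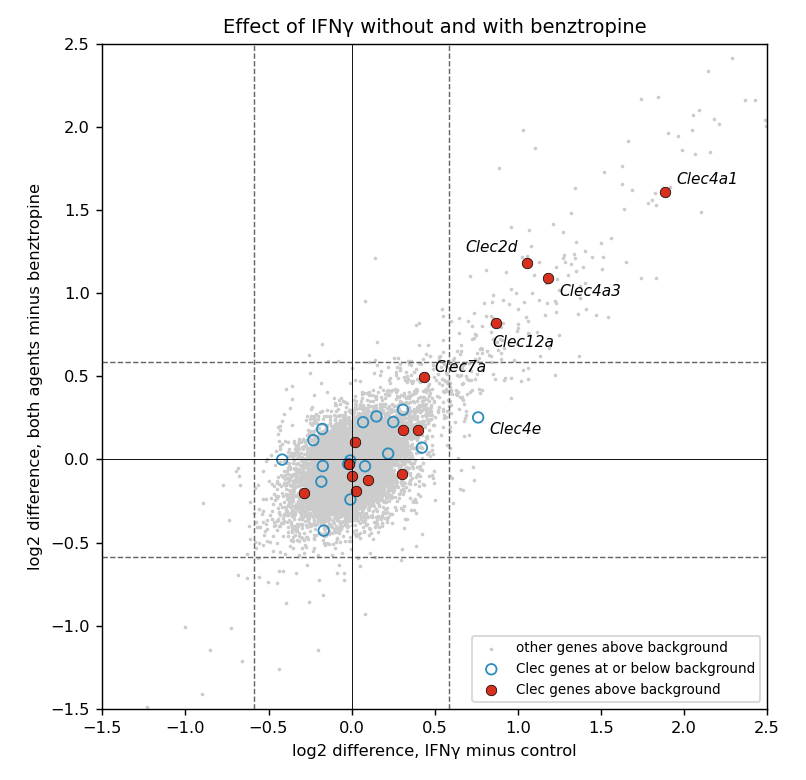
Log2 difference with IFNγ against control (horizontal) and with both agents against benztropine (vertical) for Clec genes above background in at least 1 array (filled), other Clec genes (open) and other genes above background in at least 1 array (grey); dashed lines mark 1.5-fold, and 30 genes lie outside the axes. *Clec4a1*, *Clec4a3*, *Clec2d* and *Clec12a* lie past 1.5-fold on both axes, *Clec4e* on the horizontal axis alone.

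The promoters of the genes that rose are shown with that of *Clec7a*, which did not pass 1.5-fold, because the sequence upstream of a start site is where factors of the interferon pathway and of macrophages are known to bind. The windows are RefSeq promoters of build GRCm38.p6, from 250 bases before to 50 bases after the start, all on chromosome 6, and 25 of the 31 Clec genes had at least 1. Capitals mark matches, on either strand, to 3 motifs. These are GAAA and GAAA with any 2 bases between them, the form of the interferon-stimulated response element bound by Irf factors, then GGAA and GAAA with any 2 bases between them, a composite for an Ets and an Irf factor, and GAGGAA, a core bound by PU.1, a factor of the macrophage lineage. The motifs can overlap each other by their letters, and no matches overlapped in the windows shown.
Clec4a1, chr6:122921598-122921897, plus strand: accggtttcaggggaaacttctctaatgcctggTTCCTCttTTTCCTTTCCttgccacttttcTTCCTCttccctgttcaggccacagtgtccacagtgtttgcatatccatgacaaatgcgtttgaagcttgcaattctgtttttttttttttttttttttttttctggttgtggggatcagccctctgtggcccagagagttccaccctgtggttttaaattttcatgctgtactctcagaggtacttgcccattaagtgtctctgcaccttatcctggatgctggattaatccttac
Clec4a3, the second of its start sites, chr6:122952394-122952693, plus strand: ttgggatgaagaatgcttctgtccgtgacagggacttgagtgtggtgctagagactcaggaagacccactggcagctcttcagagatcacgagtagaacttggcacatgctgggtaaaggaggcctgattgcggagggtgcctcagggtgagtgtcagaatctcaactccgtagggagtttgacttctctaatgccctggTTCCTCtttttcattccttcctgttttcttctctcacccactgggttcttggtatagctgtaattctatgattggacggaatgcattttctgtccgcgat
Clec2d, chr6:129180365-129180664, plus strand: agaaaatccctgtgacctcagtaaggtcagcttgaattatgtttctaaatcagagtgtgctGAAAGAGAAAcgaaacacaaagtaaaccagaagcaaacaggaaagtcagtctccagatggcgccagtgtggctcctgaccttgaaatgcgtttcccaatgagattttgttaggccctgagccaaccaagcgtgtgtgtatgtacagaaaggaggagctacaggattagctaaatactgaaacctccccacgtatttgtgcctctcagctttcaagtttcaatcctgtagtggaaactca
Clec12a, chr6:129349994-129350293, plus strand: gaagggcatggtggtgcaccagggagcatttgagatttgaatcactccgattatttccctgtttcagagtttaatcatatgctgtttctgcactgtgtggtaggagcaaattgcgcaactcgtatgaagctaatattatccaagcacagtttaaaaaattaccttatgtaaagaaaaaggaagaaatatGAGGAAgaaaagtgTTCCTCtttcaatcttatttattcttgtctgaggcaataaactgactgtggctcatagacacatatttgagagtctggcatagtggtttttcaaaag
Clec7a, the first of its start sites, chr6:129472730-129473029, minus strand: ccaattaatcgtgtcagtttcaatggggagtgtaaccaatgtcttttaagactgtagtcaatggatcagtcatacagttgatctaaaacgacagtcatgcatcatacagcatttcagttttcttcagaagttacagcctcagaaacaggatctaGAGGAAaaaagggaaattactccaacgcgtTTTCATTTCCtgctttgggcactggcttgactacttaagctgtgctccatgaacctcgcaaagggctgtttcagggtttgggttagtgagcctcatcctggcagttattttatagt

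Of the 4 genes that rose, *Clec2d* alone held an interferon-stimulated response element, from base −189 to −180 before its start, and *Clec4a1* alone the composite, from −209 to −200. *Clec4a1*, *Clec4a3* and *Clec12a* held the PU.1 core. *Clec7a* held the composite and the PU.1 core, and the first start site of *Clec4a3* held no match. Over all 25 Clec genes with a promoter, the PU.1 core was found for 15, the response element for 3 (*Clec2d*, *Clec4b1* and *Clec4d*) and the composite for 3 (*Clec2i*, *Clec4a1* and *Clec7a*). Counted in the same way, 31.3% of all 27025 genes with a promoter held the PU.1 core, 3.99% the response element and 3.16% the composite, a gene with several start sites being counted once if any of its windows matched. Of the 32851 single windows, 28.3% held the PU.1 core, 3.44% the response element and 2.72% the composite. A match of letters is a description and not a measured binding site.

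*Clec7a* was the next Clec gene above background by the size of its IFNγ difference in the presence of benztropine. Its log2 signals were 10.84 with both agents, 10.68 with IFNγ, 10.34 with benztropine and 10.25 in control, with no overlap between the arrays with and without IFNγ. The differences of 0.43 and 0.49 stayed below 1.5-fold, and in the limma fit the estimate was 0.46 ± 0.07 (SE; limma adjusted p = 0.121). Over the alternative fits the limma adjusted p ran from 0.00404 to 0.125. It passed 0.05 with a variance trend and with genes above background alone, so the call for *Clec7a* depends on these settings. Over all genes these settings called 419 and 380 higher, against 161 in the first fit.

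*Clec4e* encodes Mincle, a receptor of mycobacterial glycolipid that acts together with MCL. It was the fifth gene past 1.5-fold against control, with a log2 difference of 0.76, but its signals of 6.59 with IFNγ and 5.82 in control were both at or below background, so no fold is given. With both agents it had 6.52, against 6.26 with benztropine alone, a difference of 0.25. *Clec4d*, the gene of its partner MCL, had 8.69 with both agents, 8.44 with IFNγ, 8.51 with benztropine and 8.13 in control, and control was the lowest array for both genes.

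*Clec4n*, the gene of Dectin-2, had log2 signals of 7.58 with both agents, 7.59 with IFNγ, 7.67 with benztropine and 7.28 in control. The 3 treated arrays lay close together above control, and none differed from it past 1.5-fold. *Clec5a* went the other way, with 8.46 with both agents, 8.44 with IFNγ, 8.66 with benztropine and 8.72 in control. Its differences with IFNγ, −0.29 and −0.20, did not pass 1.5-fold, and the limma estimate was −0.24 ± 0.07 (SE; limma adjusted p = 0.321).

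*Clec4a2* encodes DCIR, an inhibitory receptor of the same group as *Clec4a1*. It had 6.82 with both agents, 6.67 with IFNγ, 6.64 with benztropine and 6.27 in control, and the array without any agent was the lowest. With IFNγ its difference from control was 0.40, from a control signal below background, and with both agents it was at least 1.12-fold higher than with benztropine alone. *Clec4a4*, the other gene of this group, encodes DCIR2 and was below background in all arrays, with 4.52 with both agents, 4.27 with IFNγ, 4.26 with benztropine and 4.12 in control. Genes of the Clec4a group resemble each other in sequence, and how far their probes share transcripts was not tested.

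The remaining genes above background differed little between arrays. *Clec16a* had 8.65 with both agents, 8.57 with IFNγ, 8.55 with benztropine and 8.55 in control. *Clec18a* had 7.36, 7.41, 7.49 and 7.32 in the same order, *Clec2m* 6.99, 7.01, 7.09 and 7.00, and *Clec4f* 6.82, 6.76, 6.85 and 6.77. *Clec3b*, which encodes tetranectin, a secreted protein that binds plasminogen, had 6.90 with both agents, 7.09 with IFNγ, 7.09 with benztropine and 7.07 in control. For these 5 genes the span over all 4 arrays was between 0.09 and 0.19 on the log2 scale, against 2.06 for *Clec4a1*.

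The 17 genes not above background in any array had control signals between 3.60 and 6.39. They include *Clec10a*, a galactose-binding lectin of macrophages, *Clec1b*, the platelet receptor of podoplanin, *Clec14a*, a gene of endothelium, *Clec4g*, known from liver endothelium, *Clec1a*, *Clec12b*, *Clec3a*, *Clec11a*, *Clec2l*, the activating receptors *Clec4b1* and *Clec4b2*, and the Clr genes *Clec2e*, *Clec2g*, *Clec2h* and *Clec2i*, with *Clec4a4* and *Clec4e* as above. With IFNγ against control their differences ran from −0.42 for *Clec2g* to 0.76 for *Clec4e*, with a median of −0.01. With both agents against benztropine the range was −0.43 for *Clec14a* to 0.30 for *Clec12b*. *Clec10a* differed by 0.25 and 0.23, *Clec12b* by 0.31 and 0.30 and *Clec4a4* by 0.15 and 0.26 in these pairs. None of the 17 passed 1.5-fold in both pairs, and signals at this level do not measure a fold.

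With benztropine against control 0 of the 31 Clec genes passed 1.5-fold, where 0.271% of all genes were higher and 0.194% lower. In the presence of IFNγ 1 was higher, where 0.239% of all genes were higher and 0.275% lower. Past 1.5-fold in both pairs were 0 Clec genes, where 0.0225% of all genes were higher and 0.0% lower. The gene higher in the presence of IFNγ was *Clec2g*, a Clr gene. Its signals were 5.28 with both agents, 4.68 with IFNγ, 5.28 with benztropine and 5.10 in control, all below background. Its difference from control with benztropine was 0.18. The limma fit called 0 Clec genes for benztropine at an adjusted p under 0.05 (of all genes, 0.0% in each direction). At an unadjusted p under 0.05 limma gave 8 higher and 1 lower, where 3.53% of all genes were higher and 3.61% lower, and the limma adjusted p of all 9 was 0.692.

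Among the Clec genes above background in both arrays, the highest differences with benztropine against control were those of *Clec4a1* at 0.45, *Clec4n* at 0.39, *Clec4d* at 0.37 and *Clec4a3* at 0.29. In the presence of IFNγ these genes differed by 0.18, −0.00, 0.24 and 0.20, in the same order. *Clec4e* at 0.44, *Clec4a2* at 0.37 and *Clec2i* at 0.30 were not above background with benztropine or in control, so their differences do not measure a fold. The differences of benztropine from control and of IFNγ from control share the control array, so a low control signal would raise both. For each of these 7 genes control was the lowest of the 4 arrays. They were picked for their differences from control, so this is partly fixed by the choice and is no test. Markers of microglia and macrophages had a median difference of 0.12 with benztropine against control and −0.01 in the presence of IFNγ, and their part in these values was not tested.

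**Figure D3:**
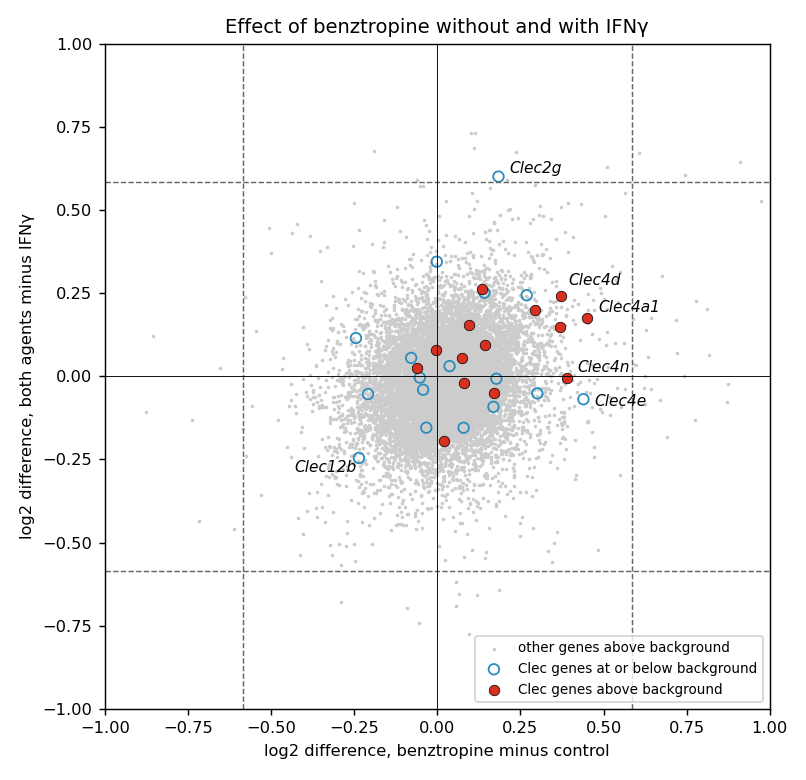
Log2 difference with benztropine against control (horizontal) and with both agents against IFNγ (vertical), for the same gene classes as in the plot of the IFNγ differences; dashed lines mark 1.5-fold, and 2 genes lie outside the axes. No Clec gene lies past 1.5-fold on the horizontal axis, where *Clec4a1* reaches 0.45, and *Clec2g* alone passes it on the vertical axis, at 0.60.

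How far the effect of IFNγ differed between the backgrounds was measured as the difference in the presence of benztropine minus that in its absence. It ran from −0.51 for *Clec4e* to 0.42 for *Clec2g*, both below background. None of the 31 passed 0.58 in size. Across all genes above background in at least 1 array this value had a standard deviation of 0.17. *Clec4n* had −0.39 and *Clec4a1* −0.27, and *Clec4a3*, *Clec12a*, *Clec7a* and *Clec2d* lay between −0.09 and 0.13. With 1 array per condition the departure was not tested.

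Most Clec genes lie on chromosome 6 in a pair of stretches, where the genes that rose stand among Clec genes that were not called. In the first stretch 9 Clec4 genes follow each other with no other coding gene between them in the RefSeq table of GRCm38.p6. *Clec4a1* and *Clec4a3* stand side by side at its start, and the next pair, *Clec4a4* and *Clec4b1*, was not above background in any array. Of the 9 genes, 5 were above background in at least 1 array, against 13613 of all 22180 genes. In control 4 were above it, against 58.0% of all genes. The second stretch, *Clec2h* to *Clec7a*, holds 13 Clec genes, 11 of them measured here, and 6 other coding genes. In it *Clec2d* and *Clec12a* rose, and between them lay *Clec2m*, with differences of 0.01 and −0.10, and *Cd69*, a lectin-like gene of activated leukocytes. *Cd69* had 7.37 with both agents, 7.23 with IFNγ, 6.35 with benztropine and 5.98 in control. It was at least 1.45-fold higher with IFNγ than in control and at least 1.65-fold higher in the presence of benztropine (limma estimate 1.14 ± 0.09, SE, adjusted p = 0.0171). The stretches were chosen after the values were seen and serve as a description.

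**Figure D4:**
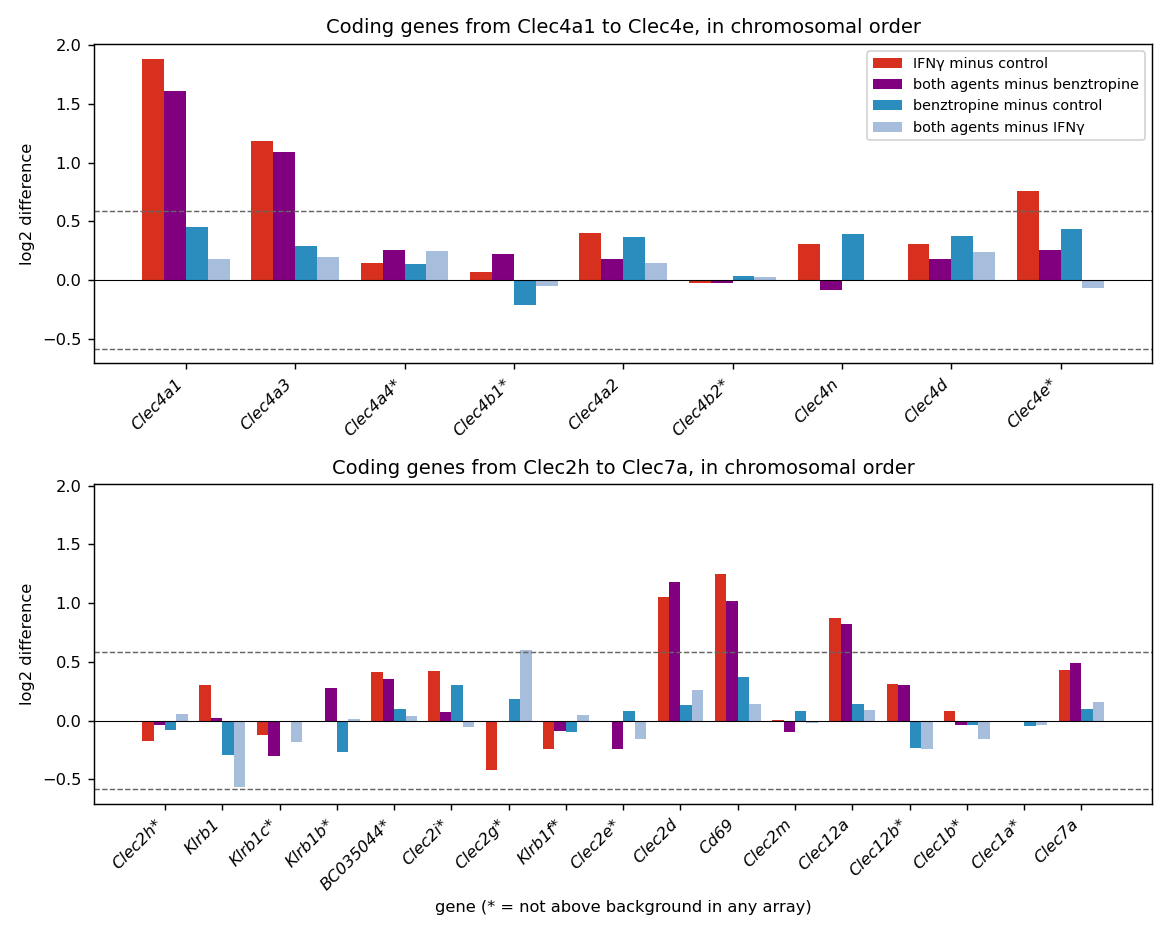
Log2 differences (vertical) of the coding genes with a probe set of their own in the stretches *Clec4a1* to *Clec4e* and *Clec2h* to *Clec7a*, in chromosomal order with equal spacing; the 4 bars per gene are the 4 comparisons, dashed lines mark 1.5-fold, and an asterisk marks genes not above background in any array. *Clec4a1* and *Clec4a3* lead the first stretch with IFNγ, and *Clec2d*, *Cd69* and *Clec12a* the second.

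Most genes listed for the signalling of Clec receptors were above background. Of 22 adaptors, kinases, phosphatases and transcription factors, 19 were measured, and all 19 were above background in the 4 arrays. In each of the 4 comparisons 0 passed 1.5-fold. The median difference was 0.19 with IFNγ against control and 0.06 with both agents against benztropine. Over the 31 Clec genes it was 0.08 and 0.07, and over the 14 above background in either array of a pair 0.31 and 0.14. The adaptor genes *Fcer1g* and *Tyrobp* had 12.79 and 11.32 with both agents, 12.71 and 11.12 with IFNγ, 12.56 and 11.21 with benztropine, and 12.47 and 11.16 in control. For the kinase gene *Syk* the differences with IFNγ were 0.18 and −0.01, and for *Card9* −0.01 and 0.03. The highest difference against control was that of the phosphatase gene *Ptpn6*, which acts downstream of inhibitory receptors such as Clec12a, at 0.46, with 0.22 in the presence of benztropine.

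Of 14 cytokine and early genes that activating Clec receptors are known to induce, 5 were above background in control. With IFNγ 2 were higher in both pairs (of all genes, 0.879%), and none was lower past 1.5-fold. *Tnf* had 8.93 with both agents, 8.63 with IFNγ, 7.93 with benztropine and 7.64 in control, a change of 1.98-fold and 2.00-fold (limma estimate 1.00 ± 0.07, SE, adjusted p = 0.0122). *Il1b* had 7.62, 7.49, 6.48 and 6.68 in the same order, at least 1.74-fold against control and at least 1.95-fold in the presence of benztropine (limma estimate 0.97 ± 0.10, SE, adjusted p = 0.0466). These cytokines have many inducers besides Clec receptors.

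Of 10 genes listed as ligands or partners of Clec proteins, 9 were measured, and 0 passed 1.5-fold in any comparison. *Pdpn*, the ligand of Clec1b, had 11.74 with both agents, 11.77 with IFNγ, 11.71 with benztropine and 11.70 in control, while *Clec1b* itself was below background. *Sap130*, listed by its name, differed by 0.00 in both IFNγ pairs, but it is not the gene of the SAP130 protein that Mincle binds. *Klrb1b*, which encodes the NK cell receptor of Clr-b, was below background in all arrays, between 5.09 and 5.37, whereas its ligand gene *Clec2d* rose. *Mmrn2*, the partner of Clec14a in endothelium, was above background in all arrays and differed by at most 0.05 in size.

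Among 54 other genes with a C-type lectin-like domain, 51 were measured and 13 were above background in control (of all genes, 58.0%). With IFNγ 4 were higher against control (of all genes, 1.39%) and 3 in both pairs (of all genes, 0.879%), *Klra2*, *Klrk1* and *Cd69*. *Klra9*, higher against control alone, was below background in all arrays. *Klra2* had 8.71 with both agents and 8.48 with IFNγ, against 5.02 with benztropine and 4.24 in control, at least 4.16-fold and at least 3.46-fold higher in these pairs (limma estimate 3.96 ± 0.15, SE, adjusted p = 0.00189). *Klrk1*, the gene of the activating receptor NKG2D, had 8.40 and 8.02, against 5.03 and 4.83, in the same order, at least 3.35-fold and at least 2.51-fold higher (limma estimate 3.27 ± 0.08, SE, adjusted p = 0.000878). None was lower against control, and *Mrc1*, the mannose receptor gene, was lower past 1.5-fold when both agents were compared with benztropine, at −0.68. The median difference of the 51 genes was 0.01 with IFNγ against control and −0.02 with both agents against benztropine.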

How the data were processed

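RNA of cultured cerebral cells of C3H/He pups was measured on 4 arrays, 1 per condition, with RNA of 3 cultures mixed on each and 500 ng as starting material. The authors' deposited values are log2 signals made with RMA in Affymetrix Expression Console, as their processing notes name them, and were used as deposited. The build behind the probe annotation is not given in the sources used here.

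Probe sets with 1 gene symbol in the platform annotation (23521 of 41345) gave 22180 genes by their mean, and those with several symbols named no gene. *Clec2f* and *Clec2j* were not analysed here. Each pair of arrays gave a log2 difference with the study's threshold of 1.5-fold and no test. A fold against an array at or below background is given as at least the ratio to that level. The limma 3.58.1 fit in R 4.3.3 had prior degrees of freedom of 3.61, and was tested on simulated data. Python 3.11.15, pandas 2.3.3 and statsmodels 0.14.6 were used otherwise. Named with values in all arrays were Clec genes above background in at least 1 array, and those past 1.5-fold. The Clec genes, lists, stretches and motifs were chosen with earlier results of these data known. Alternatives were a threshold of 2-fold, genes above background alone, the highest probe set per gene, several-symbol probe sets averaged in, quantile normalization repeated, a loess trend (span 0.3) removed, the 99th percentile as background, and for limma, probe sets in place of genes, an adjusted p under 0.10, a trend of the variance with the level, and robust estimation.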

Additional observations from a re-analysis of the deposited data

Results flagged for a closer look

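The probe set shared by *Clec9a* and *Clec1b*, which no count of Clec genes uses, was higher by 0.71 on the log2 scale with IFNγ than in control. It stands out as a signal outside the genes counted. Its log2 signals were 5.18 with both agents, 5.33 with IFNγ, 4.61 with benztropine and 4.63 in control, all below background. With both agents against benztropine alone the difference was 0.57, short of 1.5-fold. The probe set of *Clec1b* alone differed by 0.08 and −0.04 in these pairs. Which of the genes the shared probe set measured was not tested.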

How the results depend on the processing

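With the 99th percentile as background, 6 Clec genes were above it in control in place of 13. At 2-fold, 3 Clec genes were higher with IFNγ against control in place of 5, and 0 with both agents against IFNγ in place of 1, which was also 0 among genes above background alone. Shares of all genes were not counted at 2-fold. The other 60 recomputed counts stayed within 1.5 times their first value, among them 6 genes higher with IFNγ against control when the probe set shared with *Clec9a* was averaged in, and 5 genes called by limma, *Clec7a* being the addition, with a variance trend or with genes above background alone. Over all 22180 genes limma called 161 higher with IFNγ in the first fit and 419 with a variance trend. With genes above background alone it called 380 of 13613. Limma called *Clec4a1*, *Clec4a3*, *Clec2d* and *Clec12a* under each alternative fit, with a highest adjusted p of 0.0224 for *Clec12a*, and called 0 Clec genes for benztropine under each. Repeated quantile normalization and loess moved a Clec difference by at most 0.05, and no call changed its direction. No paired analysis was possible because each condition has 1 array and the labels carry no replicate numbers, and no replicate could be left out. The detection of low signals rests on the chosen background level, and the arrays give no error for a single pair.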
